A study of Mus musculus with 6 samples.

Results

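The septins are a family of GTP-binding cytoskeletal proteins, and 7 of them, Sept2, Sept6, Sept7, Sept8, Sept9, Sept10 and Sept11, were followed in messenger RNA from mouse eggs. They are 7 of the 13 septin genes with a row in the count table of 24062 genes, found by symbol; the selenoprotein gene Sep15, whose symbol looks alike, is no septin and was left out. The set was put forward because Sept2 was seen to be lower in 1 group, so the contrast of that group with its control is given for all 7 genes as a description without a p-value. Of the 7 genes, 3 passed the expression filter and entered the tests (Sept2, Sept11 and Sept7). The other 4 had few or no counts in most libraries and are given as values.

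The samples were metaphase II (MII) eggs, the ovulated and arrested stage, from superovulated females aged 8 weeks. All females carried the multicolour transgene HISRainbow and Figla-iCre, a recombinase driven by the oocyte gene Figla, so the control eggs carried both alleles too. Each egg was sorted under a confocal microscope by the form of the replacement histone H3.3 that it expressed. The forms were H3.3K27R-mCherry, with lysine 27 changed to arginine (here K27R), H3.3R26K-eCFP, with arginine 26 changed to lysine (here R26K), and the unmutated H3.3-eGFP (here H3.3). There were 2 libraries per form. The labels call them biological replicates and do not give the eggs or females behind each, so the p-values below speak only of the spread among these libraries. Because every form had its own fluorescent protein, the effect of a tag and that of a substitution cannot be told apart. The endogenous H3.3 genes were not said to be removed.

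Septins bind one another through their GTP-binding domains and join end to end into rods, which pair into filaments, rings and gauzes under the cell membrane. They fall into subgroups named after SEPT2, SEPT6, SEPT7 and SEPT3, and a rod takes its subunits from different subgroups, with SEPT7 the only protein of its own subgroup in mammals. In dividing animal cells septins gather at the cleavage furrow together with the scaffold protein anillin. An MII egg has completed 1 such division, the very unequal one that gives the first polar body, and is arrested before the next. Eggs at this stage make almost no new RNA and use stored transcripts, whose poly(A) tails can be lengthened or removed.

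What joins the members is the GTP-binding domain, and its phosphate-binding loop (P-loop) is shown here because it was found once in the coding sequence of each of the 7. These are the 24 coding bases of the loop in GENCODE M21 transcripts (mm10), 5′ to 3′ on the coding strand, with capitals for the bases that are the same in all 7 members.
Sept2: GGtgAatctGGtcTaGGaAAaTCa
Sept7: GGtgAatctGGacTgGGaAAgTCg
Sept6: GGggAgacaGGttTgGGcAAgTCc
Sept8: GGcgAaactGGgaTtGGcAAgTCc
Sept10: GGggAgactGGaaTtGGaAAaTCa
Sept11: GGtgAgacaGGtaTtGGcAAaTCc
Sept9: GGgcAgagcGGccTcGGgAAgTCc
The 12 capitals stand at the same places in every member. Against Sept2, Sept7 shared 20 of 24 bases, Sept10 18, Sept11 17, Sept8 16, Sept6 15 and Sept9 13. Even so, the genes were distinct at the length of a read: with 1 transcript taken per gene, none of the 50-base words of Sept2, Sept7, Sept8, Sept9, Sept10 or Sept11 occurred exactly in an annotated transcript of a gene with another symbol. The annotation holds a further protein-coding entry that is also named Sept2; it shares 3335 exon bases on the same strand with the entry used here, and the table has 1 row for the symbol. For Sept6 the share was 6.28%, all in its antisense neighbour Gm15008.

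Gene counts totalled 11557291 and 10803477 in the K27R libraries, 39603440 and 33786225 in the R26K libraries, and 12748821 and 11452906 in the H3.3 libraries. Levels are given in CPM, counts scaled to a common library total and adjusted with TMM factors, which balance libraries of different composition. A floor of 3 counts stood for 0.0813 to 0.285 CPM. Of 13 oocyte markers, 12 or 13 had a count in every library, with Gdf9, an oocyte growth factor, at 11020 to 16113 CPM. Cumulus and granulosa cells envelop the egg in the follicle, and of their 23 listed markers 16 and 5 were counted in K27R, 18 and 15 in R26K, and 6 and 14 in H3.3. Leaving out Serpine2, the most abundant, they summed to 354 and 23.1 CPM in K27R, 192 and 240.0 CPM in R26K, and 81.1 and 641 CPM in H3.3. The libraries also differed in how completely transcripts were counted. Of the genes that averaged 30 to 80 CPM in the other libraries, a window chosen after the data were seen, 0.229% and 9.77% had at most 1 count in K27R replicates 1 and 2, 0% and 0.0582% in R26K, and 7.96% and 12.6% in H3.3.

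Sept2 (ENSMUSG00000026276.20, mm10 chromosome 1, 93478964 to 93510260, plus strand) was the most abundant septin transcript per length in every K27R and H3.3 library. It encodes the protein that names its subgroup and was at 447 and 724 CPM in K27R, at 50.4 and 27.7 CPM in R26K, and at 522 and 603 CPM in H3.3. Both R26K libraries thus lay far below the other 4, which overlapped. Per group the means were 586 ± 196 CPM in K27R, 39.1 ± 16.1 CPM in R26K and 562 ± 57.1 CPM in H3.3 (SD, n = 2 each). Sept2 stood above 96.8% and 98.0% of the 10667 tested genes in K27R, above 72.2% and 60.9% in R26K, and above 97.1% and 97.6% in H3.3. The libraries are bulk samples, so fewer eggs with a transcript and less of it per egg cannot be told apart. The cDNA was primed at poly(A), so a different tail length and a different amount of transcript cannot be told apart either. Tail length was not tested.

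**Figure D1:**
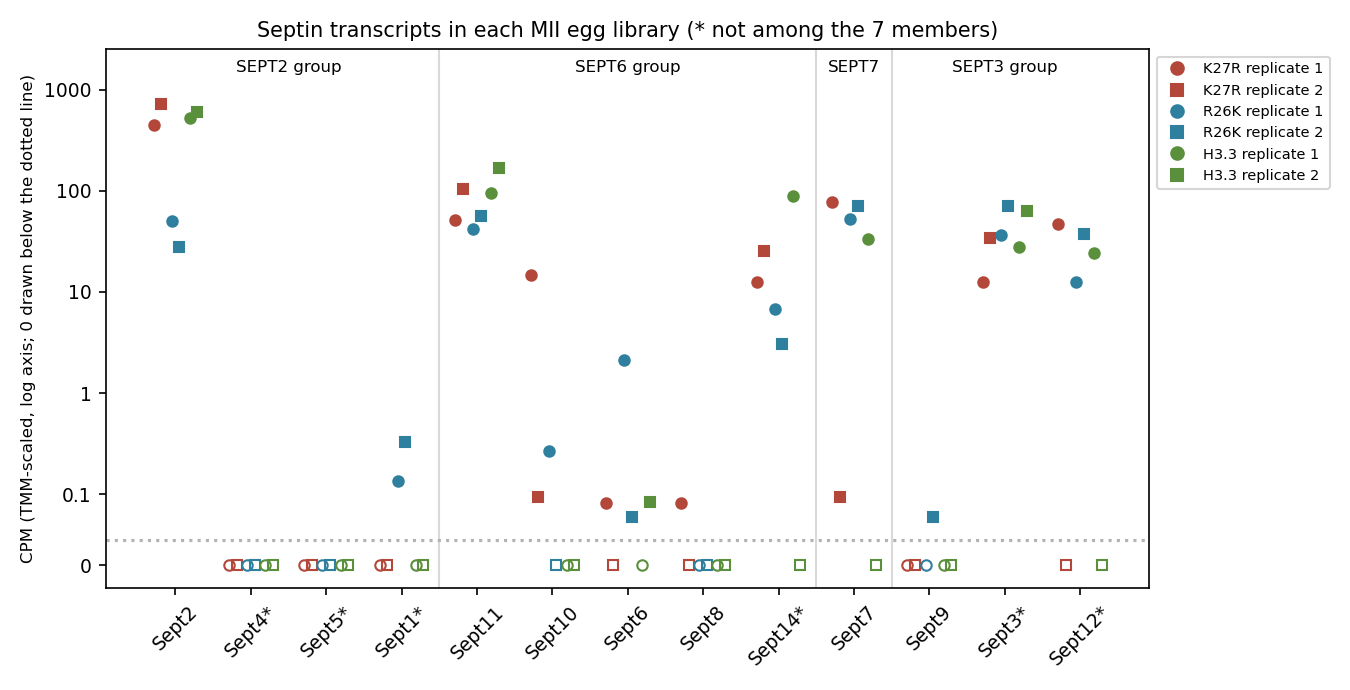
Level of each of the 13 septin genes in each of the 6 libraries (TMM-scaled CPM, log axis; open marks below the dotted line are libraries without a count; circles replicate 1, squares replicate 2; genes with an asterisk are outside the 7). Sept2 stands at 447 to 724 CPM in K27R and H3.3 and at 27.7 to 50.4 CPM in R26K, while Sept6, Sept8 and Sept9 stay at or below 2.11 CPM.

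Against H3.3, Sept2 in R26K had a log2 fold change of -3.85 ± 0.44 (SE). This is the contrast that led to the choice of the gene, and the value is a description. It was 1 of the 3 tested members past an edgeR adjusted p of 0.05, and it was lower, a call reached downward by 0.216% of all tested genes in this contrast; nothing is read from that count, since the rule set it. The share called higher was 0.403%, with no member among them. The fold ranged from -4.36 to -3.48 over 14 alternatives; upper-quartile scaling moved the median of all tested genes by -0.20 in this contrast and by 0.22 in K27R against R26K, and Sept2 by about as much (-4.05 and 4.14). The fold of Sept2 stayed far from 0. The call past the threshold rests on the values that led to the choice of Sept2, so neither the call nor its loss is a test. Among the alternatives with no library left out, the call was lost in the fit of only these 2 groups (-3.85). It was also lost with the correction for GC content and length (-3.54). Fits with a library left out are given by their fold alone, whether or not the call was kept. The fold was -3.74 without H3.3 replicate 2, and -3.85 without K27R replicate 1 or without K27R replicate 2. K27R against R26K shares the R26K libraries with that contrast, and there Sept2 had a log2 fold change of 3.90 ± 0.44, also given as a description. It was the 1 member of 3 called higher there, beside 0.169% of all tested genes, with 0.206% lower, and nothing is read from it either. Among the alternatives with no library left out, this call, too, was lost with only these 2 groups (3.95) and with the GC and length correction (3.62). Given again by the fold alone, the value was 4.21 without K27R replicate 1 and 3.52 without K27R replicate 2.

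The comparison that the choice of Sept2 did not rest on is K27R against H3.3, which asks whether the substitution at lysine 27 goes with a different Sept2 level, although the H3.3 libraries are shared with the first contrast. The log2 fold change was 0.058 ± 0.39 (SE), with a 95% interval from -0.90 to 1.01, and did not pass (edgeR adjusted p = 1). None of the 3 tested members passed by edgeR or DESeq2, and 0 of the 3 had an unadjusted p under 0.05. All 3 overlapped between K27R and H3.3, where 15.9% of tested genes lay higher and 9.62% lower in both K27R libraries. For Sept2, K27R replicate 1 was the lowest and K27R replicate 2 the highest of the 4 libraries. The sign turned without H3.3 replicate 1 (-0.036) or K27R replicate 2 (-0.33). In this contrast 0% of all tested genes were called by edgeR; 759 had an unadjusted p under 0.05, and DESeq2 called 685.

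**Figure D2:**
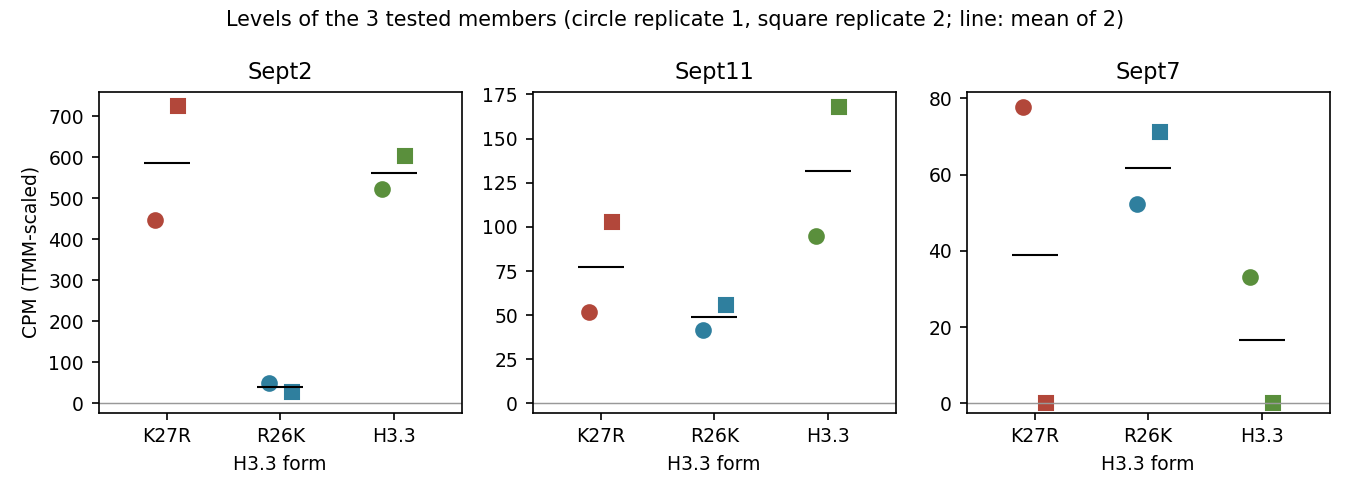
CPM of Sept2, Sept11 and Sept7 in each library (linear axes that differ between panels; circle replicate 1, square replicate 2, line the mean of 2). The R26K libraries are the lowest for Sept2, Sept11 lies between 41.7 and 168 CPM throughout, and Sept7 is at 0.0949 CPM in K27R replicate 2, while H3.3 replicate 2 had no count of it.

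Sept11 had counts in every library, as did only Sept2 among the other members. It lies on chromosome 5 (ENSMUSG00000058013.11, 93093437 to 93176447, plus strand), and its protein can take the SEPT6 place in filaments. It was at 51.7 and 103 CPM in K27R, at 41.7 and 56.0 CPM in R26K, and at 95 and 168 CPM in H3.3. R26K lay below H3.3 without overlap, and K27R overlapped both. Against H3.3, the log2 fold change was -1.43 ± 0.60 (SE) in R26K, given as a description, and it kept its sign in all 14 alternatives (-2.05 to -0.96, the last without H3.3 replicate 2). Lying below H3.3 in both R26K libraries was shared by 15.3% of all tested genes. Of the other tested members, Sept2 was chosen for being low in R26K, and Sept7 lay above H3.3. For K27R against H3.3 the value was -0.77 ± 0.60, with a 95% interval from -2.22 to 0.68 (edgeR adjusted p = 0.694). For K27R against R26K it was 0.66 ± 0.60, with an interval from -0.79 to 2.1 (adjusted p = 0.867). Neither passed. K27R against H3.3 became -0.36 without K27R replicate 1, -1.35 without K27R replicate 2 and -0.30 without H3.3 replicate 2. K27R against R26K became 1.07 without K27R replicate 1, 0.084 without K27R replicate 2 and 1.03 with the GC and length correction.

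Sept7 (ENSMUSG00000001833.17, chromosome 9, 25252439 to 25308571, plus strand), for which no other gene of its subgroup can stand in, differed widely between the replicates of a group. It had 957 and 1 counts in K27R (77.8 and 0.0949 CPM), 1927 and 2361 counts in R26K (52.2 and 71.3 CPM), and 434 and 0 counts in H3.3 (33.2 and 0 CPM). Within K27R, replicate 1 stood 820-fold above replicate 2, with a 95% counting interval from 147 to 32432. Within H3.3, replicate 1 was at least 130-fold higher than the floor of 3 counts in replicate 2. Both limits hold for the error of counting alone, because amplified cDNA yields many reads per molecule. Sept7 was thus present in both R26K libraries and in replicate 1 of the other groups.

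No direction could be given for Sept7 in K27R. K27R against H3.3 gave a log2 fold change of 1.23 ± 2.83 (SE, edgeR adjusted p = 0.980), which became -7.36 without K27R replicate 1, 2.22 without K27R replicate 2, 12.69 without H3.3 replicate 1 and 0.23 without H3.3 replicate 2. K27R against R26K gave -0.66 ± 2.80 (adjusted p = 1), which became -9.26 without K27R replicate 1, 0.34 without K27R replicate 2, -0.43 without R26K replicate 2 and -1.24 with the GC and length correction. R26K against H3.3 gave 1.9 ± 2.88 as a description; it was above 0 in all 14 alternatives, at 0.90 without H3.3 replicate 2 and 13.33 without H3.3 replicate 1. Both R26K libraries lay above both H3.3 libraries, as they did for 44.8% of all tested genes. Having at most 1 count in both K27R replicate 2 and H3.3 replicate 2, with at least 10 CPM in all others, was shared by 64 genes of the table. With H3.3 replicate 1 in place of replicate 2 the number was 52, and each pair that included K27R replicate 1 had 2. K27R replicate 2 and both H3.3 libraries are the libraries in which transcripts of this level were missed most often, and the part of that in the result was not tested. The library with no Sept7 count, H3.3 replicate 2, had the highest summed level of cumulus and granulosa markers without Serpine2. It also missed transcripts of this level most often (12.6%), and the part of such cells in the Sept7 counts was not tested. A strand was not marked by the library kit, and 245 bases of Sept7 exons overlap the pseudogene Gm48272 on the other strand.

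**Figure D3:**
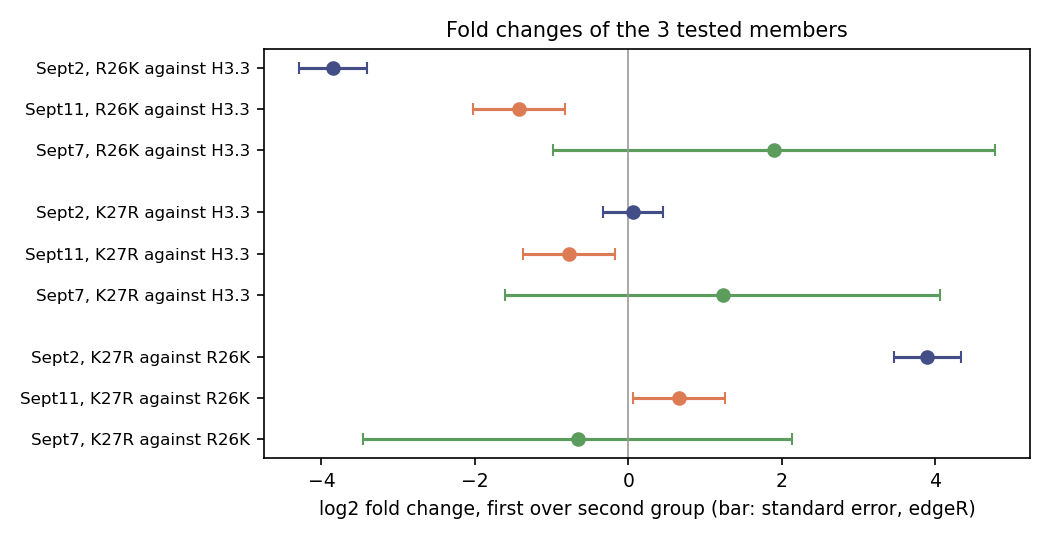
Log2 fold change of Sept2, Sept11 and Sept7 in the 3 contrasts (horizontal axis, first over second group; bars are standard errors from the edgeR fit of all 6 libraries). Sept2 stands at -3.85 and 3.90 in the contrasts with R26K and at 0.058 in K27R against H3.3, and the bars of Sept7 reach over 0 in all 3.

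The other 4 members had few or no counts in most libraries. Sept10, of the SEPT6 subgroup, had 180 and 1 counts in K27R, 10 and 0 in R26K, and none in H3.3, so that its level of 14.6 CPM rested on K27R replicate 1 alone. The cumulus and granulosa markers without Serpine2, of which 15 and 4 of 22 were counted in K27R, 17 and 14 in R26K, and 5 and 13 in H3.3, had their highest sum in H3.3 replicate 2, where Sept10 had no count, and their second highest in K27R replicate 1. The part of such cells in the Sept10 counts was not tested. Sept6 had 1 and 0 counts in K27R, 78 and 2 in R26K, and 0 and 1 in H3.3. The 78 counts came from R26K replicate 1 alone; exons of Gm15008 overlap 308 bases of Sept6 on the other strand, and the part of its reads was not tested. Sept8, of the same subgroup, had 1 count, in K27R replicate 1, and Sept9, which joins longer septin rods, had 2 counts, in R26K replicate 2. None of these 4 genes was counted above the floor in more than 2 libraries, and none of them entered the tests.

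Beside the 7 members, the table held 6 further septins, and 3 of these were tested. Sept3 and Sept12 belong to the SEPT3 subgroup of Sept9. Sept3 was at 12.4 and 34.2 CPM in K27R, 36.7 and 70.1 CPM in R26K, and 28.0 and 63.3 CPM in H3.3. K27R lay below R26K without overlap, as 36.3% of all tested genes did. Sept12, known as a component of the sperm annulus, was at 46.5 and 0 CPM in K27R, 12.5 and 37.1 CPM in R26K, and 24.3 and 0 CPM in H3.3. It had no count in K27R replicate 2 and H3.3 replicate 2, where Sept7 had 1 and 0. Sept14, of the SEPT6 subgroup, was at 12.5 and 25.6 CPM in K27R, 6.75 and 3.08 CPM in R26K, and 88.9 and 0 CPM in H3.3. For it K27R lay above R26K, as for 17.5% of tested genes. None of the 3 passed in any contrast (lowest edgeR adjusted p = 0.553, for Sept14 in R26K against H3.3), nor under any of the 14 alternatives, DESeq2 among them, and 0 of the 3 had an unadjusted p under 0.05 in any contrast. Sept1 had 5 and 11 counts in R26K (0.136 and 0.332 CPM) and none elsewhere. In the smaller K27R and H3.3 libraries 3 counts stood for 0.23 to 0.285 CPM, so such a level could be missed there. Sept4 and Sept5 had no count in any library.

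Levels of different septins were compared only per kilobase of transcript. On this scale Sept2 was at 118 and 192 CPM per kb in K27R, 13.3 and 7.33 in R26K, and 138 and 159 in H3.3. Sept7 was at 30.9 and 0.0377 CPM per kb in K27R, 20.8 and 28.3 in R26K, and 13.2 and 0 in H3.3. Sept11 was at 10.3 and 20.4 CPM per kb in K27R, 8.30 and 11.1 in R26K, and 18.9 and 33.4 in H3.3. Sept2 was thus the highest septin per length in all 4 K27R and H3.3 libraries, whereas in R26K Sept7 was above Sept2 in both libraries. In R26K replicate 2, Sept12 (28.6), Sept3 (14.0) and Sept11 (11.1) were above Sept2 as well. Sept12 reached 35.9 and 0 CPM per kb in K27R, 9.65 and 28.6 in R26K, and 18.8 and 0 in H3.3. The second place changed from library to library, with Sept14 there in H3.3 replicate 1 (54.2). In R26K, Sept7 held the first place in replicate 1, while Sept12 (28.6) and Sept7 (28.3) were nearly level in replicate 2.

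All septins together summed to 211 and 235 CPM per kb in K27R, 64.3 and 91.6 in R26K, and 249 and 206 in H3.3. Of these sums Sept2 made up 56.0% and 81.7% in K27R, 20.7% and 8.0% in R26K, and 55.5% and 77.6% in H3.3. Its share was lowest in both R26K libraries, which follows in part from the low Sept2 level that led to its choice. Because shares are parts of a whole, a low share of Sept2 by itself raises those of the other subgroups in R26K. A shift between subgroups was not tested. The share of the SEPT6 subgroup was 11.2% and 15.4% in K27R, 20.4% and 14.2% in R26K, and 29.4% and 16.3% in H3.3. The SEPT7 subgroup made up 14.6% and 0.0161% in K27R, 32.3% and 30.9% in R26K, and 5.31% and 0% in H3.3, and the SEPT3 subgroup 18.2% and 2.92% in K27R, 26.4% and 46.6% in R26K, and 9.81% and 6.17% in H3.3. With the union of all annotated exons as the length, a choice made after the data were seen, the share of Sept2 was 56.5% and 74.7% in K27R, 21.3% and 8.33% in R26K, and 45.9% and 73.5% in H3.3. On that length Sept7 was below Sept2 in R26K replicate 1 (15.2%) and above it in R26K replicate 2 (14.7%), so the order of these genes in R26K depends on the length used. Sept3 and Sept12 were above Sept7 in both R26K libraries on that length, at 18.7% and 15.6% in replicate 1 and at 25.4% and 32.8% in replicate 2.

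**Figure D4:**
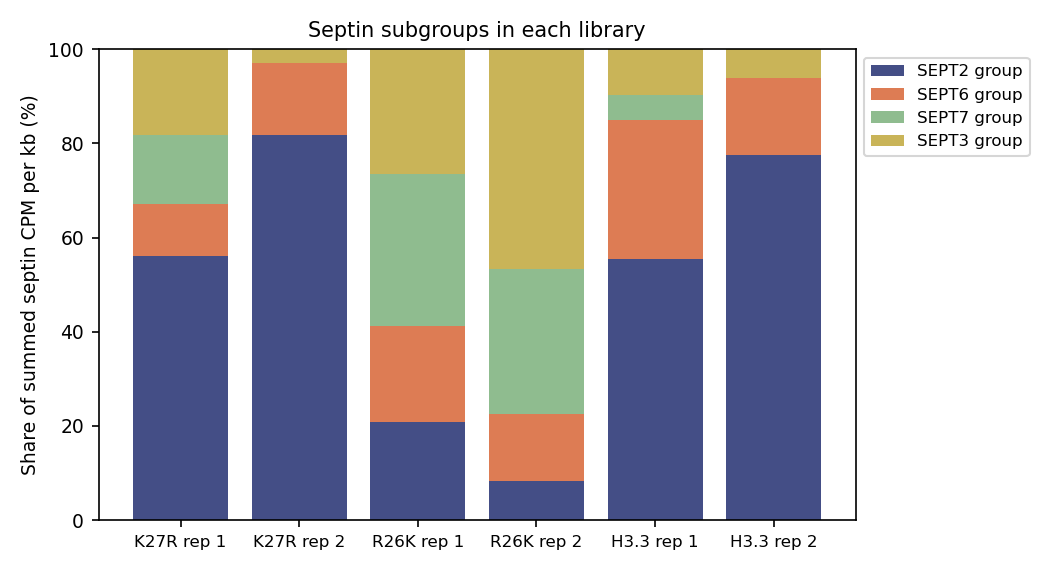
Share of each septin subgroup in the summed septin level per kilobase of transcript (vertical axis, percent; 1 bar for each library). The SEPT2 subgroup, nearly all of it Sept2, takes 55.5% to 81.7% in K27R and H3.3 and 20.9% and 8.25% in R26K.

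Genes that work with septins were taken from a pair of lists. The list of septin regulators and binding partners, such as the GTPase Cdc42, its effectors and anillin, had 15 genes in the table, of which 11 were tested. None passed in any of the 3 contrasts (edgeR adjusted p under 0.05), where 0.619% of tested genes passed in R26K against H3.3, 0% in K27R against H3.3 and 0.375% in K27R against R26K. An unadjusted p under 0.05 was reached by 3, 0 and 3 of the 11 genes in these contrasts, and DESeq2 called 1 (Cit), 0 and 2 (Cit and Map4). Of all tested genes, 21.7%, 7.12% and 13.2% had such a p, and DESeq2 called 15.4%, 6.42% and 7.12%. The median log2 fold change of the list was 0.56 in R26K against H3.3 (all tested genes 0.66), -0.12 in K27R against H3.3 (0.12) and 0.41 in K27R against R26K (-0.32). For the 2857 tested genes that averaged at least 50 CPM, the medians in the same order of contrasts were 0.0308, 0.0159 and 0.00105. Nearest to the threshold in R26K against H3.3 were Map4, a microtubule-binding protein, and Cit, the citron kinase of the contractile ring. Map4 was at 283 and 385 CPM in R26K and at 144 and 146 CPM in H3.3 (1.21 ± 0.36 SE, adjusted p = 0.210). Cit was at 168 and 214 CPM in R26K and at 40.3 and 68.1 CPM in H3.3 (1.82 ± 0.55, adjusted p = 0.213). Both were also nearest in K27R against R26K, with K27R at 95.2 and 144 CPM for Map4 (-1.48 ± 0.36, adjusted p = 0.210) and at 32.3 and 57.8 CPM for Cit (-2.09 ± 0.56, adjusted p = 0.252). With the GC and length correction Map4 was at 0.30 and Cit at 0.68 in R26K against H3.3, and at -0.69 and -1.11 in K27R against R26K. In K27R against H3.3 the 2 nearest were Rtkn2, at 31.2 and 33.4 CPM in K27R, against 12.9 and 12.5 CPM in H3.3 (1.35 ± 1.03, adjusted p = 0.683), and Cdc42ep2, at 7.40 and 0.0949 CPM in K27R and without a count in H3.3 (adjusted p = 0.522).

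The list of cytokinesis and polar body genes had 40 symbols, of which 37 were matched and 34 tested, and none passed in any contrast. Its median log2 fold change was 0.20 in R26K against H3.3 (all tested genes 0.66), -0.01 in K27R against H3.3 (0.12) and -0.04 in K27R against R26K (-0.32). An unadjusted p under 0.05 was reached by 6, 3 and 6 of the 34 genes in these contrasts, and DESeq2 called 6, 1 and 2 of them, to be read against the same shares of all tested genes. The 6 that DESeq2 called in R26K against H3.3 were Fmn2, Aurkb, Pfn1, Cit, Plk1 and Rhoa. Of these, 4 were higher and 2 lower in R26K. The 1 gene that it called in K27R against H3.3 was Aurkb. Pfn1, the actin-binding protein profilin 1, came nearest: it was at 254 and 363 CPM in R26K and at 39.8 and 16.1 CPM in H3.3 (3.46 ± 0.58 SE, adjusted p = 0.0689). In 6 of 14 alternatives Pfn1 did pass, with adjusted p from 1.46e-06 to 0.227 over all 14. In K27R, Pfn1 was at 73.0 and 85.9 CPM (-1.96 ± 0.55 against R26K, adjusted p = 0.285). The GC and length correction gave Pfn1 a log2 fold change of 1.99 in R26K against H3.3 and of -0.68 in K27R against R26K. Aurkb, the kinase of the chromosomal passenger complex, was at 17.6 and 17.3 CPM in K27R, 26 and 16 CPM in R26K, and without a count in H3.3, where 3 counts stood for 0.230 and 0.255 CPM. Its edgeR adjusted p was 0.522 in K27R against H3.3 and 0.160 in R26K against H3.3. Of genes that averaged 30 to 80 CPM in the other libraries, 7.96% and 12.6% had at most 1 count in the H3.3 libraries. The part of such missed transcripts in the Aurkb counts was not tested. Arf6, a small GTPase of membrane traffic, was at 49.3 and 73.6 CPM in K27R and at 108 and 248 CPM in H3.3 (-1.53 ± 0.53, adjusted p = 0.522), and its log2 fold change was -0.81 without H3.3 replicate 2. Cit, which is on both lists, and Pfn1 had the smallest p of this list in K27R against R26K.

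The genes whose levels ran most like Sept2 over the 6 libraries were picked by the Pearson correlation of log2(CPM + 1) among the 6139 tested genes that averaged 10 CPM or more. They were Klhl9 (r = 0.998), Ccnb1 (0.998), Paip1 (0.996), Chsy1 (0.996) and Arl6ip1 (0.995). Klhl9, an adaptor of a ubiquitin ligase, was at 642 and 1330 CPM in K27R, 60.9 and 39.2 CPM in R26K, and 868 and 951 CPM in H3.3. Chsy1, a chondroitin synthase, was at 687 and 1150 CPM in K27R, 116 and 88.6 CPM in R26K, and 938 and 850 CPM in H3.3. Ccnb1, cyclin B1, had the same order with a smaller range, at 1400 and 1590 CPM in K27R, 853 and 788 CPM in R26K, and 1500 and 1540 CPM in H3.3. All 5 were lowest in the R26K libraries. Such likeness was not rare, since 137 of the 6139 genes had an r above 0.95, and 6 points that fall into 2 levels give a high r to any gene with the same low group.

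**Figure D5:**
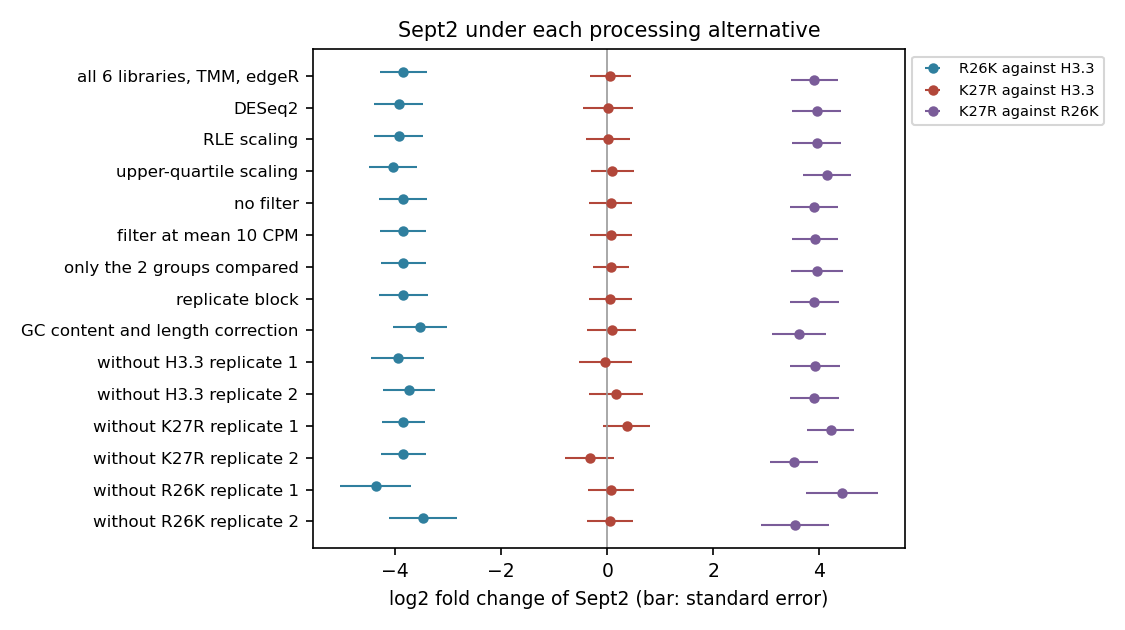
Log2 fold change of Sept2 (horizontal axis; bars are standard errors) with all 6 libraries and under each of 14 processing alternatives, for the 3 contrasts. The values lie between -4.36 and -3.48 for R26K against H3.3, between -0.33 and 0.36 for K27R against H3.3, and between 3.52 and 4.43 for K27R against R26K.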

How the data were processed

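RNA of 6 libraries was measured by sequencing of cDNA (SMARTer Ultra Low RNA kit, primed at poly(A), Nextera libraries, Illumina HiSeq, single reads of 50 bases), per the labels' protocols. The submitters' processing notes name featureCounts, SAMtools 1.3, TopHat2 2.1.0, cutadapt 1.9.1 and mm10. Not given in the sources used here are the annotation, the strand setting and the handling of reads with several matches. Raw counts of reads per gene symbol were deposited, without normalization. The 6 columns of the table matched the sample titles, and groups and replicate numbers came from the titles.

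From the counts, genes were kept by filterByExpr (10667 genes) and tested with edgeR 4.0.16 (glmQLFit, glmQLFTest; R 4.3.3). All 6 libraries entered 1 model with a mean per group (3 residual degrees of freedom, common dispersion 1.63), two-sided, Benjamini-Hochberg adjusted over all tested genes, threshold 0.05. The standard error is the log2 fold change divided by the root of the F statistic, and limits of intervals use 95%. The steps were also run on simulated counts. The settings and results of that run are not given here, so nothing is read from it for data with a dispersion of 1.63. The 2 libraries of a group differed far beyond counting noise in each group. Coordinates, lengths, GC content, overlaps and the P-loop bases came from GENCODE M21 (mm10), which matched 23701 symbols. Per-length levels use 1 principal transcript per gene.

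Genes were named by a rule: all 7 members; other septins with a row; list genes that passed, or else the 2 with the smallest p; and the 5 genes most like Sept2. The members, lists, rule and alternatives were chosen with earlier results of these data known. Alternatives were DESeq2 1.42.0, upper-quartile and RLE scaling, a filter at a mean of 10 CPM or none, a fit of the compared groups only, replicate number as a block, a loess correction for GC content and length (fitted on genes of at least 50 CPM), and each library left out in turn.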

Additional observations from a re-analysis of the deposited data

How the results depend on the processing

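Counts of called genes depended on the setting, with 66 genes in R26K against H3.3, 0 in K27R against H3.3 and 40 in K27R against R26K by the edgeR fit of all libraries. In R26K against H3.3, DESeq2 called 1644, no filter 241, a filter at a mean of 10 CPM 157, the fit of only these groups 0, the replicate block 260 and the GC and length correction 6, and leaving out 1 library gave 1 to 193. In K27R against H3.3, DESeq2 called 685 and leaving out 1 library gave 0 to 5. In K27R against R26K, DESeq2 called 759, no filter 156, the filter at 10 CPM 95, the replicate block 195 and the GC and length correction 2, and leaving out 1 library gave 0 to 140. Members called were 1 (Sept2), 0 and 1 in these contrasts. Both counts of 1 are descriptions, since Sept2 was chosen for its level in R26K. Both counts of 1 became 0 with only the groups compared and with the GC and length correction, and ranged from 0 to 1 when 1 library was left out; the cause was not tested. Signs turned for Sept2 in K27R against H3.3 (-0.036 without H3.3 replicate 1, -0.33 without K27R replicate 2) and for Sept7 in K27R against H3.3 (-7.36 without K27R replicate 1) and K27R against R26K (0.34 without K27R replicate 2), none of them called; over single libraries left out these 3 values ranged from -0.33 to 0.36, from -7.36 to 12.69 and from -9.26 to 0.34. The labels do not say that a replicate number marks a shared female or day, and same-numbered libraries did not deviate together (correlations of -0.00959, 0.00124 and 0.0108), so the block shares only a number; with it Sept2 had log2 fold changes of -3.84, 0.057 and 3.90 in the 3 contrasts. The block also gave Sept7 8.46 in R26K against H3.3 and -7.14 in K27R against R26K, neither of them called. Sept6, Sept8, Sept9 and Sept10 were above 3 counts in no group in both libraries.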
